A study of Rattus norvegicus with 26 samples.

Results

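miR-22 is a small RNA that was followed here as a single feature, the one named rno-miR-22 without a star, out of the 677 rat miRNAs on a single-colour Agilent microarray. It was chosen from its measured values, because it was bright in normal liver and lower late after a resection. Its own levels and differences are therefore given as a description, with no test. Liver of male Sprague-Dawley rats was measured on 26 arrays, 1 rat per array, in 9 groups. The normal group held 3 livers of rats that had no resection, although one label of theirs reads sham. In the other 8 groups, 1/3 or 2/3 of the liver had been removed by partial hepatectomy (1/3PH or 2/3PH) and the right lobes were taken 6, 12, 24 or 36 h later, from 2 rats at 6 h after 1/3PH and 3 rats in every other group. The hours follow the sample titles, and some other labels differ from these by 1 or 2 h. The labels name no genetic change or drug, and the age of the rats was not given in the sources used here. The RNA came from whole tissue, so that fewer cells of a type and less RNA per cell cannot be told apart.

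A miRNA pairs through its seed, the bases near its 5′ end, with messenger RNAs and lowers their translation or stability. miR-22 is expressed in many tissues, including liver, heart and muscle, and the transcript of Tet2, which oxidises methylated DNA, is among its known targets. After 1/3PH few hepatocytes divide, whereas after 2/3PH most of them enter the cell cycle, which is why the study set both operations side by side.

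The mature sequences are shown because the seed decides which transcripts a miRNA can pair with, and because miR-22 stands alone in its seed whereas other miRNAs described later share theirs. They come from RefSeq on the GRCr8 build, 5′ to 3′, with bases 2 to 8 in capitals. The array files pair probes with names only. The name without a star was therefore read as the arm now called 3p and miR-22* as the arm now called 5p, as in the naming in use when the array was designed.
rno-miR-22-3p: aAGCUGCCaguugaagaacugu
rno-miR-22-5p: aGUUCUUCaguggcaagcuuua
Both arms are 22 bases long, and among the 724 mature rat miRNAs of RefSeq only miR-22 itself carries the seed of the 3p arm.

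The hairpin holds both arms and lies on the plus strand at chr10:60805331-60805425 of GRCr8, with the arms in capitals here, first 5p and then 3p.
Mir22 hairpin: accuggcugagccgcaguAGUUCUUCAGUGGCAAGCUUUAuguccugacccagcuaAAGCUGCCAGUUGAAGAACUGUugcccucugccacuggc
The 3p arm occupies bases 60805387 to 60805408 and the 5p arm bases 60805349 to 60805370. No listed gene other than Mir22 overlapped the hairpin. The next protein-coding genes were Wdr81, which ended 11659 bases before it, and Tlcd2, which began 3965 bases after it, and the hairpin of another miRNA, Mir6326, ended 142 bases before it.

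miR-22 was well above background throughout. It was detected on all 26 arrays, all of its spots lay well above background and 0 of them were saturated. A pair of probes with 10 spots each measured it, so that 520 spots stood behind its values, of which 28 (5.38%) had been marked as outliers by the scanning software and were left out. The level of a miRNA is the sum of its probes divided by a scale of the array, the 75th percentile of 109 probes detected everywhere, on a log2 scale. Of the miR-22 sum, the brighter probe contributed 86.7% to 90.3% on the different arrays. Spots of the brighter probe varied within an array by 1.30% to 9.89% of their mean (coefficient of variation), and those of the dimmer probe by 0.977% to 13.6%. The total signal of an array was between 58458 and 95463 units with 118 to 155 miRNAs detected, except for replicate 2 of 1/3PH at 12 h, which reached 18196 units and 91 miRNAs. That dim array carries a high miR-22 level, and its group is given with and without it.

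In normal liver miR-22 was at rank 3 in brightness among the 677 miRNAs, on each of the 3 arrays. Its log2 levels in replicates 1 to 3 were 3.73, 3.49 and 3.75, with a mean of 3.66 ± 0.14 (SD, n = 3). The raw sums behind them were 3019, 2602 and 4108 units, and miR-22 made up 4.09% ± 0.22 (SD, n = 3) of all signal on the array. Signals of different probes are not amounts, so the rank describes brightness on this array and not the number of molecules. It was rank 3 under each of the 8 other ways of processing that were tried. Other scales and quantile normalization keep the order within an array, so these could not have changed the rank. Only another background correction, the brightest probe alone, the software's gene signals and the authors' own log2 values could have.

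Only miR-122, the abundant miRNA of hepatocytes, and miR-21, known as a growth-promoting miRNA, were brighter. The log2 levels of miR-122 in normal liver were 7.49, 7.21 and 7.42, and those of miR-21 were 4.30, 4.88 and 4.52. Below miR-22 followed let-7a, with 3.33, 3.17 and 3.21, and let-7f, with 3.04, 3.02 and 2.96. Both belong to the let-7 family, which holds back growth genes, and their sequences are so alike that the array may not fully separate them. No normal array had let-7a above miR-22.

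**Figure D1:**
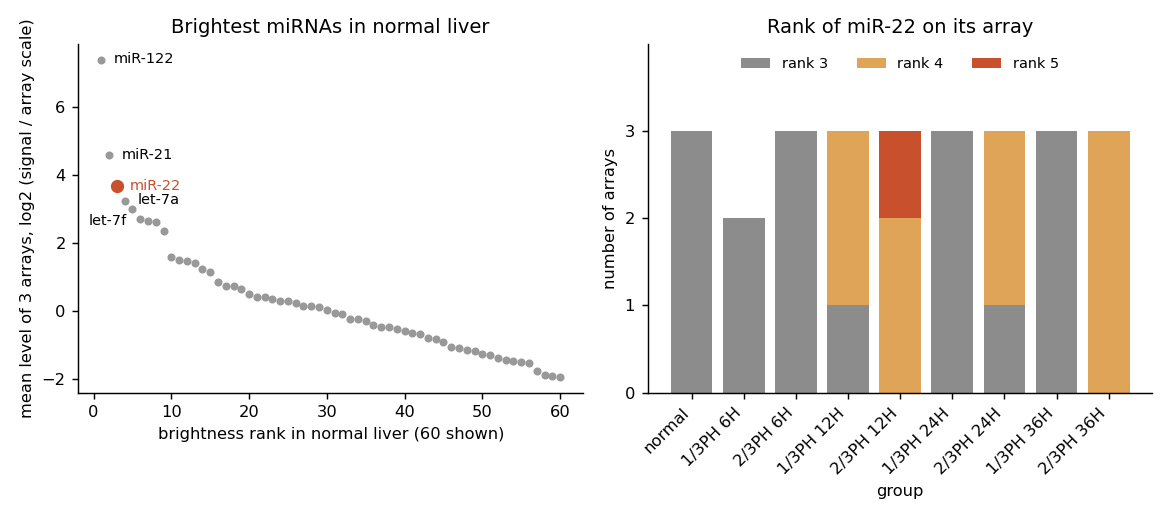
The left panel plots the mean log2 level (signal over array scale) of the 60 brightest miRNAs in normal liver against their rank, and the right panel stacks, for each group, the number of arrays on which miR-22 was at rank 3, 4 or 5. miR-22 is at rank 3 in normal liver at 3.66, and all 3 arrays of 2/3PH at 36 h have it at rank 4.

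After a resection the rank slipped on 10 arrays, to 4 on 9 of them and to 5 on 1. On these arrays let-7a was brighter than miR-22, and on the array at rank 5 let-7f was as well. They were 2 of 3 arrays of 1/3PH and 3 of 3 of 2/3PH at 12 h, 2 of 3 of 2/3PH at 24 h and 3 of 3 of 2/3PH at 36 h. All arrays at 6 h, of 1/3PH at 24 h and of 1/3PH at 36 h kept miR-22 at rank 3.

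Over time, the level lay lower from 12 h on after 2/3PH and at 36 h after 1/3PH its mean was near that of normal liver, with 2 of 3 arrays inside the normal range and 1 above it. The label of a miRNA lowered at 36 h therefore fits 2/3PH and not 1/3PH, and after 2/3PH the lower level was present at 12 and 24 h too. Over all arrays the log2 level spanned 3.08 to 3.89, a range of 0.81. At 6 h the 2 arrays of 1/3PH read 3.56 and 3.68, and the 3 arrays of 2/3PH read 3.52, 3.58 and 3.43. All but the last of these lay inside the normal range of 3.49 to 3.75.

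At 12 h the arrays of 2/3PH read 3.37, 3.13 and 3.08, with a mean of 3.19 ± 0.16 (SD, n = 3), the lowest of the 9 groups. All 3 lay below every normal liver. The arrays of 1/3PH read 3.26, 3.72 and 3.32, with a mean of 3.43 ± 0.25 (SD, n = 3). Its highest value belongs to the dim array, and replicates 1 and 3 lay below all normal livers.

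At 24 h the arrays of 2/3PH read 3.26, 3.29 and 3.22, again all below the normal livers, and averaged 3.26 ± 0.033 (SD, n = 3). Those of 1/3PH read 3.43, 3.66 and 3.23, so that 1 of them lay within the normal range. Their mean was 3.44 ± 0.22 (SD, n = 3).

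At 36 h the 2 operations were furthest apart. The arrays of 2/3PH read 3.23, 3.19 and 3.25, a mean of 3.22 ± 0.027 (SD, n = 3). The arrays of 1/3PH read 3.53, 3.89 and 3.72, a mean of 3.71 ± 0.18 (SD, n = 3), the highest of the 9 groups. The ranges of these groups did not overlap, and 2/3PH also lay below all normal livers, whereas 1/3PH overlapped them.

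**Figure D2:**
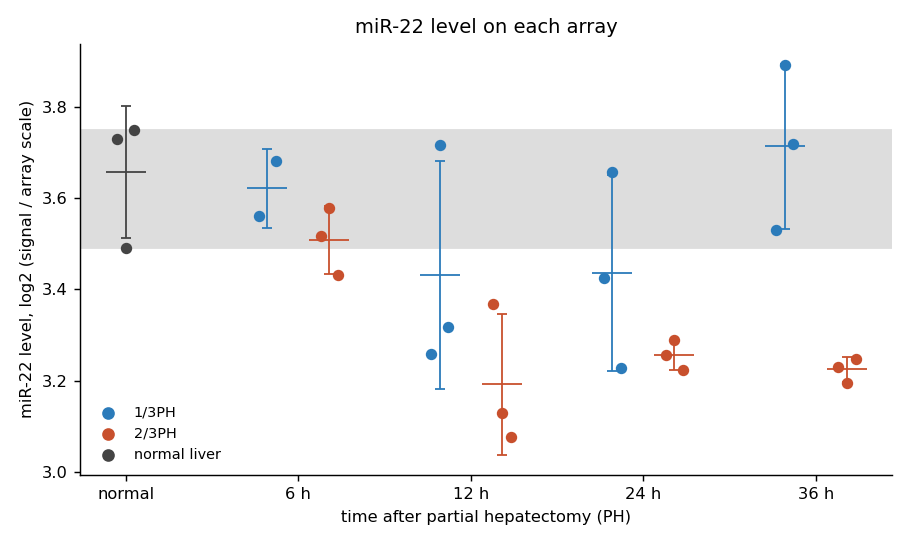
Each point is the log2 level of miR-22 (signal over array scale) on 1 array, by time after partial hepatectomy and operation, with the group mean and SD as bars and the range of normal liver shaded. All arrays of 2/3PH at 12, 24 and 36 h lie below the shaded range of 3.49 to 3.75, and those of 1/3PH at 36 h lie between 3.53 and 3.89.

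In the order of the group means, 1/3PH at 36 h (3.71) was followed by normal liver (3.66), 1/3PH at 6 h (3.62), 2/3PH at 6 h (3.51), 1/3PH at 24 h (3.44), 1/3PH at 12 h (3.43), 2/3PH at 24 h (3.26), 2/3PH at 36 h (3.22) and 2/3PH at 12 h (3.19). Each group overlapped its neighbour in this order in range, so neighbours cannot be ranked beyond their spread.

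The differences from normal liver, as estimates of a limma model over all arrays with their standard errors, were small in fold. After 2/3PH the log2 difference was -0.15 ± 0.13 (SE) at 6 h, -0.47 ± 0.13 (SE) at 12 h, -0.40 ± 0.13 (SE) at 24 h and -0.43 ± 0.13 (SE) at 36 h. The last corresponds to 74.1% of the level in normal liver. After 1/3PH it was -0.04 ± 0.15 (SE) at 6 h, -0.23 ± 0.13 (SE) at 12 h, -0.22 ± 0.13 (SE) at 24 h and 0.06 ± 0.13 (SE) at 36 h. All 8 comparisons share the same 3 normal livers. The sign at 6 h and at 36 h after 1/3PH turned when single arrays were left out, and the difference at 6 h after 2/3PH was -0.23 without replicate 2 of normal liver.

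Between the operations, 2/3PH minus 1/3PH gave -0.11 ± 0.15 (SE) at 6 h, -0.24 ± 0.13 (SE) at 12 h, -0.18 ± 0.13 (SE) at 24 h and -0.49 ± 0.13 (SE) at 36 h on the log2 scale. At 6 h it was -0.17 or -0.05 without replicate 1 or 2 of 1/3PH and -0.07 without replicate 3 of 2/3PH. At 36 h the level after 2/3PH was 0.712-fold that after 1/3PH.

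The values between 12 and 24 h after 1/3PH rested on single arrays. Without the dim array, the difference of 1/3PH from normal liver at 12 h was -0.37 instead of -0.23, and 2/3PH minus 1/3PH at 12 h was -0.10 instead of -0.24. Without replicate 1, the former was -0.14. At 24 h, 1/3PH minus normal was -0.12 without replicate 3, and 2/3PH minus 1/3PH was -0.07 without replicate 2 and -0.28 without replicate 3. The 36 h differences of 2/3PH stayed between -0.52 and -0.39 against normal liver and between -0.58 and -0.40 against 1/3PH whichever array was left out.

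Both probes placed 2/3PH below normal liver at every time. At 36 h the brighter probe gave -0.44 and the dimmer probe -0.39 for 2/3PH minus normal liver. For 1/3PH minus normal liver they gave 0.08 and -0.12, opposite signs around 0. Across the arrays the log2 levels of both probes had a Pearson r of 0.76 (n = 26 arrays, which share the scaling).

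Arrays of some groups shared a slide or a scan day. On the 1 slide with both groups, 2 arrays of 2/3PH at 36 h differed from the normal liver beside them by -0.54, and on a further scan day replicate 3 differed from its normal liver by -0.24. The 3 arrays of 1/3PH at 36 h differed from the normal liver scanned that day by -0.02. No slide or scan day held both operations at 36 h, so for that comparison the operation and the slide cannot be told apart within a slide. The same holds within a slide at 24 h, but on the scan day that both operations shared, 2/3PH minus 1/3PH was -0.28. No slide held a normal liver with 2/3PH at 24 h or with 1/3PH at 36 h. At 12 h, 2/3PH minus 1/3PH was -0.07 on 1 slide and -0.64 on the slide that held the dim array.

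A ratio within an array does not depend on how arrays are scaled, so the change of miR-22 was also set against its neighbours in brightness. Relative to miR-122, miR-22 was changed from normal liver by -0.23 at 6 h, -0.58 at 12 h, -0.31 at 24 h and -0.44 at 36 h after 2/3PH on the log2 scale, and at each time no array of 2/3PH overlapped the normal livers. After 1/3PH the ratio changed by -0.08, -0.35, -0.21 and 0.01 at these times, without overlap with normal liver at 6 h, on 2 arrays, and at 24 h. The overlap at 12 h came from the dim array, at 0.01. Replicates 1 and 3 stood at -0.51 and -0.57, below all normal livers. At 36 h after 1/3PH the ratio thus stood at its level in normal liver.

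Relative to let-7a, the change after 2/3PH was -0.34 at 6 h, -0.68 at 12 h, -0.45 at 24 h and -0.49 at 36 h, again without overlap with normal liver. At 36 h after 1/3PH it was 0.05. Relative to miR-21, 2/3PH showed no separation at 6 h (-0.03) or 12 h (0.01), and -1.01 at 24 h and -1.08 at 36 h without overlap. The ratio to miR-21 thus parted at 24 h and the ratios to miR-122 and let-7a at 6 h. Such a ratio shows unequal change and not which of both miRNAs moved. On the array scale the comparators moved too. Mean miR-21 after 2/3PH differed from normal liver by -0.48 at 12 h, 0.61 at 24 h and 0.65 at 36 h. For miR-22 these differences were -0.47, -0.40 and -0.43. At 6 h after 2/3PH let-7a differed by 0.19 and miR-122 by 0.08, beside -0.15 for miR-22. The hour at which a ratio parted is therefore not a trait of miR-22 alone.

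**Figure D3:**
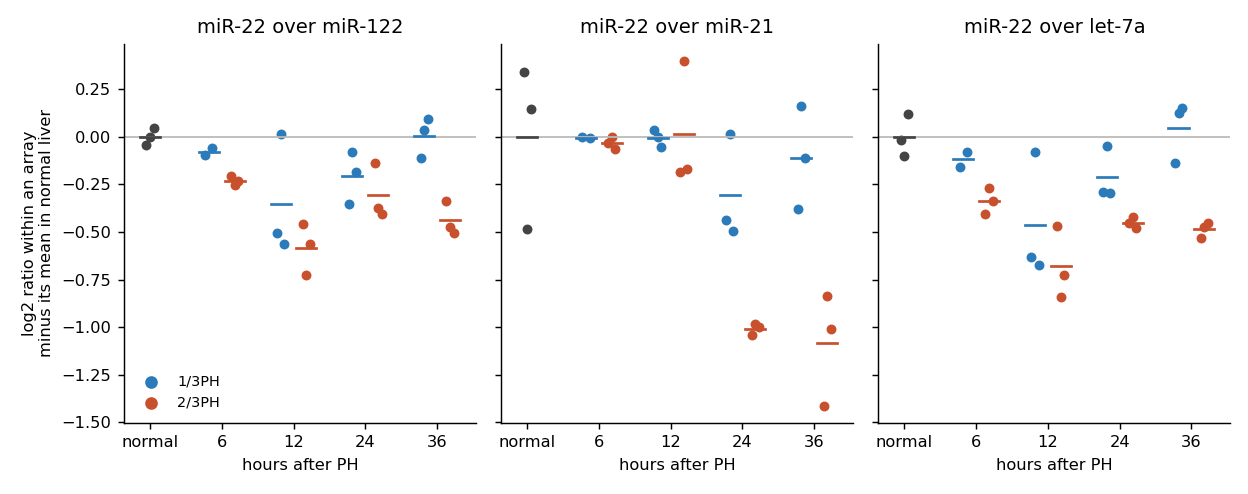
Each point is the log2 ratio of miR-22 to miR-122, miR-21 or let-7a on 1 array, minus the mean of that ratio in normal liver, by hours after partial hepatectomy (PH), with lines at the group means. Against miR-122 and let-7a all 2/3PH arrays lie below the normal livers, and against miR-21 those at 24 and 36 h do, with means of -1.01 and -1.08.

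The other arm of the hairpin, miR-22*, was near the detection limit. It was detected on 4 of 26 arrays, namely replicates 2 and 3 of normal liver, replicate 3 of 2/3PH at 6 h and replicate 3 of 1/3PH at 36 h. The gene signals that the software gave there were 12.6, 18.7, 12.9 and 12.6 units. It was detected on every array of no group and was therefore not tested. On the other 22 arrays it was not detected, which sets only an upper bound on its level.

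All miRNAs whose level followed miR-22 most and least closely were taken from the 81 others that were detected on every array. The Pearson r of log2 levels with miR-22 over the 26 arrays ran from -0.58 to 0.74 with a median of 0.05. The arrays share slides, scan days and scaling, and the correlations are a description. Most alike was miR-151, which lies in an intron of the focal adhesion kinase gene Ptk2, with a Pearson r of 0.74 and a Spearman rho of 0.69. It was followed by miR-378 (r 0.58), from an intron of the metabolic coactivator gene Ppargc1b, miR-195 (r 0.51), a member of the miR-15/16 family that restrains the cell cycle, miR-10a-5p (r 0.47), from a Hox cluster, and miR-28 (r 0.45), from an intron of Lpp.

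Without the 2 arrays furthest from the median of miR-22, replicate 2 of 1/3PH at 36 h and replicate 3 of 2/3PH at 12 h, the r of miR-151 was 0.71 and that of miR-378 0.59. That of miR-28 was 0.29, so its likeness rested in part on them. Over the 9 group means the r was 0.78 for miR-151, 0.63 for miR-378, 0.73 for miR-195, 0.65 for miR-10a-5p and 0.33 for miR-28. After the group means were removed from each array, miR-151 kept an r of 0.67, miR-378 of 0.52 and miR-28 of 0.65. For miR-195 it was 0.07 and for miR-10a-5p -0.16, so the likeness of these lay in the group means. Without the dim array the r of miR-195 over arrays was 0.69 instead of 0.51.

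The least alike were miR-15b (r -0.58), which lies with a miR-16 gene in the condensin gene Smc4, miR-25 (r -0.58), from an intron of the replication gene Mcm7, and miR-34a (r -0.50), which p53 induces. miR-195 and miR-15b, one among the most and one among the least alike, share their seed, as their RefSeq sequences show with bases 2 to 8 in capitals.
rno-miR-195-5p: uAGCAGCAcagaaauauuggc
rno-miR-15b-5p: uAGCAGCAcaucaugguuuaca
Of the 724 mature miRNAs, 5 have this seed. The log2 level of miR-195 at 36 h after 2/3PH was -0.00 against 0.65 in normal liver, and that of miR-15b was 1.35 against 0.01.

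At 36 h after 2/3PH, where miR-22 was at -0.43 from normal liver, the log2 difference was -0.70 for miR-151, -0.88 for miR-378, -0.66 for miR-195 and -0.60 for miR-10a-5p. miR-28 stood at 0.13, apart from the other 4. The differences of the least alike were 1.33 for miR-15b, 0.58 for miR-25 and 1.85 for miR-34a. At 36 h after 1/3PH, with miR-22 at 0.06, miR-15b stood at 0.00 and miR-25 at -0.01, near normal liver, whereas miR-34a stood at 0.70 and miR-378 at -0.52.

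**Figure D4:**
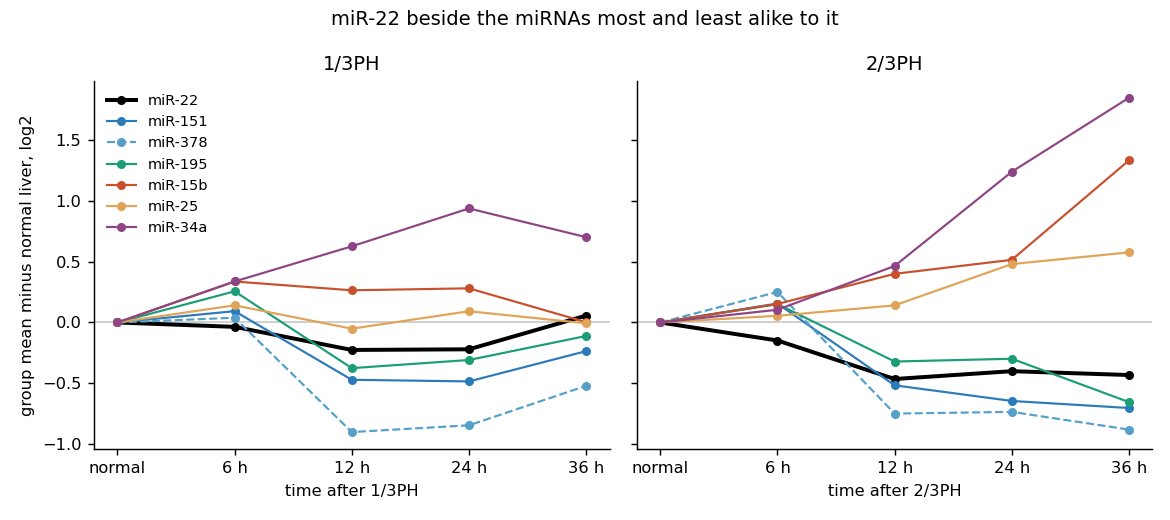
Lines join the group means, minus normal liver on the log2 scale, of miR-22 (black), 3 of the miRNAs most alike to it and the 3 least alike, by time after 1/3PH (left) and 2/3PH (right). At 36 h after 2/3PH miR-22 is at -0.43 with miR-151 at -0.70, whereas miR-15b is at 1.33 and miR-34a at 1.85.

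To place miR-22 among the rest at 36 h, the 144 miRNAs that some group showed as detected on all of its arrays were tested with limma across all 26 arrays. For 2/3PH minus normal liver, 11 of 144 miRNAs (7.64%) were lower and 16 (11.1%) higher at an adjusted p under 0.05. The median log2 difference of the 144 was 0.06, and miR-22 was the 21st from the lowest. For 2/3PH minus 1/3PH, 7 (4.86%) were lower and 15 (10.4%) higher. No slide or scan day held both of these groups. In every call of this comparison, here and in the lists below, operation and slide therefore cannot be told apart. The median was -0.12 and miR-22 was again 21st from the lowest. For 1/3PH minus normal liver, limma called 0 (0%) lower and 0 (0%) higher, with 2 lower and 5 higher at an unadjusted p under 0.05, and miR-22 was 68th from the lowest. Relative to these medians miR-22 was at -0.49, -0.37 and -0.03, respectively. Of the 144, 82 were detected on every array. The others can lie at the floor to which dim signals were raised, and that floor differed between groups. How far the medians and the place of miR-22 depend on the floor was not tested. The place of miR-22 depended on the processing. In 2/3PH minus normal liver it was 1 with normexp background correction, 43 with quantile normalization and 41 in the deposited table, and its offset from the median ran from -1.24 to -0.20. In the comparison with 1/3PH these places were 1, 45 and 44, and 7 with the brightest probe alone.

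The 20 miRNAs besides miR-22 with the highest mean level over all 26 arrays were described at 36 h in the same fit. For 2/3PH compared with normal liver 2 were lower and 2 higher, near the 7.64% and 11.1% of all tested, with a median log2 difference of -0.02. Those lower were miR-195, with a difference of -0.66 ± 0.18 (SE, limma adjusted p = 0.0114), and miR-26a, which limits cyclins, with -0.64 ± 0.11 (SE, limma adjusted p = 0.000402). Those higher were miR-15b, with 1.33 ± 0.14 (SE, limma adjusted p = 1.57e-06), and miR-21, with 0.65 ± 0.19 (SE, limma adjusted p = 0.0142). miR-15b was at rank 30 in normal liver and at place 20 of this list, which counts its high level after 2/3PH at 36 h, so its call is no support for the list. Compared with 1/3PH, again 2 were lower (miR-26a at -0.55 and miR-195 at -0.54) and 2 higher (miR-15b at 1.33 and miR-92a, of the miR-17-92 cluster, at 0.48), beside 4.86% and 10.4% of all tested, with a median of -0.03. After 1/3PH 0 of the 20 were called in either direction against normal liver.

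Of 19 miRNAs known to restrain growth, 17 were tested, the others being let-7g, which had no feature, and miR-145, which no array detected. At 36 h after 2/3PH 2 were lower than in normal liver, miR-195 and miR-26a, and 1 was higher, miR-34a, at 1.85 ± 0.22 (SE, limma adjusted p = 2.4e-06), beside 7.64% lower and 11.1% higher of all tested. Their median log2 difference was -0.00, against 0.06 for all 144. Compared with 1/3PH the same 2 were lower and miR-34a was higher by 1.15, beside 4.86% and 10.4% of all, and the median was -0.21, against -0.12 for all. For 1/3PH against normal liver 0 of 17 were called. The list holds miR-101a, which the paper had picked from these same arrays and reported as lowered after 2/3PH. It was tested and was not among the miRNAs called. The counts are therefore a description and no independent support.

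Of 12 growth-promoting miRNAs, 11 were tested, all but miR-222, and 6 were higher at 36 h after 2/3PH than in normal liver and 0 lower, beside 11.1% higher and 7.64% lower of all tested. The median log2 difference was 0.71, against 0.06 for all. The list holds miR-92a, miR-106b, miR-93 and miR-25, which the paper had picked from these same arrays and reported as raised after 2/3PH. Of these, miR-25, miR-93 and miR-106b lie together in a cluster. The list also holds miR-17-5p, miR-18a, miR-19a, miR-19b, miR-20a and miR-92a of the miR-17-92 cluster, so its members are not separate cases. The count is therefore a description and no independent support. The largest differences were those of miR-18a, of the miR-17-92 cluster, at 1.80 ± 0.33 (SE, limma adjusted p = 0.000677), and miR-93, a neighbour of miR-25 in Mcm7, at 1.15 ± 0.13 (SE, limma adjusted p = 2.1e-06). miR-18a was not detected on every normal array and was tested through another group. Its mean log2 level in normal liver, -4.61, lay near the -4.76 of miR-133a, which no array detected. At 36 h after 1/3PH it was -4.07. The size of its differences therefore depends on the floor. Compared with 1/3PH 6 were higher and 0 lower, beside 10.4% and 4.86% of all tested, with a median of 0.58 against -0.12, and miR-18a and miR-93 differed by 1.27 and 1.16. For 1/3PH against normal liver 0 of 11 were called, and the median was 0.04, against 0.08 for all.

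The tissue was liver by its markers, and the summed levels of markers of several cell types are given as a description. miR-122 was detected on all arrays, at 7.21 to 7.49 in normal liver and 7.29 to 7.47 at 36 h after 2/3PH, so that its ranges overlapped. None of 4 muscle or 2 pancreatic miRNAs was detected on any array. A sum counts undetected members at the floor of the array, and the floor differed between groups. The undetected muscle miRNAs summed to a mean of -2.76 in normal liver, -2.10 at 36 h after 1/3PH and -2.55 at 36 h after 2/3PH. Of 6 endothelial, stellate cell and smooth muscle miRNAs, 4 were detected on all arrays of these groups and miR-145 on none. Their summed log2 level was 1.91 to 2.22 in normal liver, 1.91 to 2.27 at 36 h after 1/3PH and 1.79 to 1.88 at 36 h after 2/3PH. The summed level of the 5 leukocyte miRNAs on the array was -0.05 to 0.22, -0.18 to 0.32 and -0.19 to -0.11 in these groups. Of the 5 biliary miRNAs 2 were detected on no array, miR-200c and miR-141, and the sum was -2.16 to -1.36, -1.60 to -0.73 and -0.95 to -0.44. The 2 red cell miRNAs summed to -1.20 to -0.90, -1.61 to -0.77 and -1.61 to -1.18. Whether these sums differ between groups, and the part of these cell types in the lower miR-22 level after 2/3PH, was not tested.

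The size of the difference at 36 h depended on the scaling and the background correction. For 2/3PH minus normal liver it lay between -0.61 and -0.23 under 11 other ways of processing, and its sign was negative in each. For 2/3PH minus 1/3PH it lay between -0.64 and -0.00, the last with a scale taken over all probes, where its SE was 0.50. In the table of log2 values that the authors deposited, miR-22 takes 5 distinct values over 26 arrays, since that table gives the same set of brightest values to every array. On all 3 arrays of 2/3PH at 36 h its value there was 10.5, with an SD of 0, and a mean of 10.9 ± 0.18 (SD, n = 3) in normal liver.

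**Figure D5:**
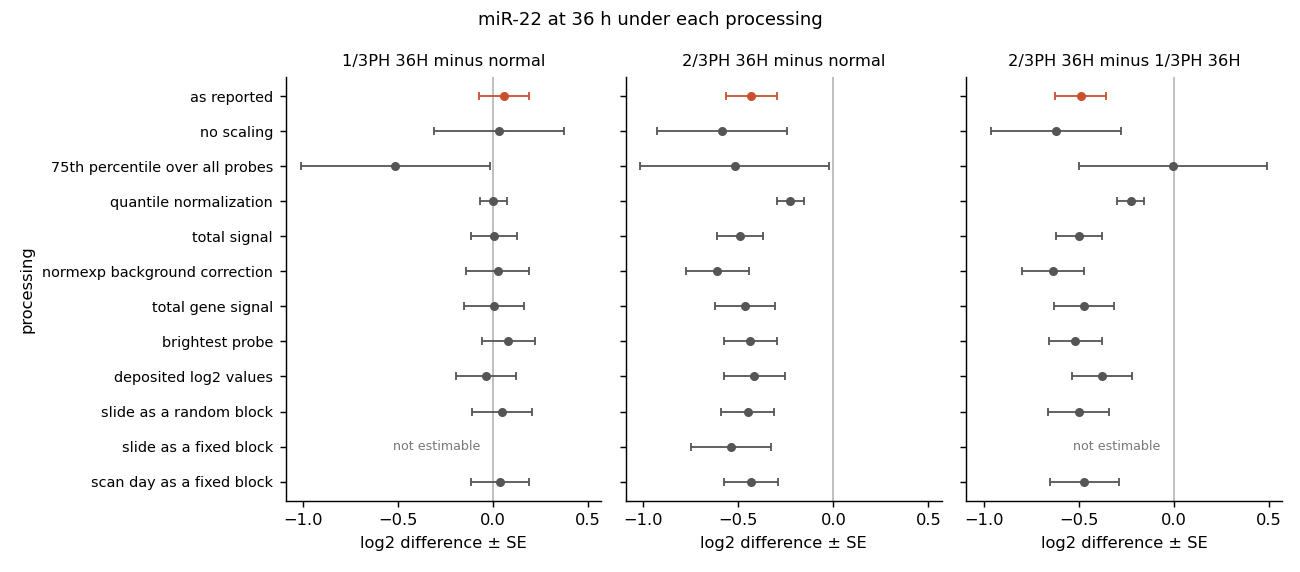
Points give the log2 difference of miR-22 at 36 h with its standard error under each way of processing, for 1/3PH minus normal liver, 2/3PH minus normal liver and 2/3PH minus 1/3PH. The middle panel lies between -0.61 and -0.23 throughout, and in the right panel the scale over all probes gives -0.00 with the widest error.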

How the data were processed

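Total RNA of 26 rat livers had been hybridised to single-colour Agilent miRNA arrays. The authors scanned the arrays and deposited spot intensity values from Agilent Feature Extraction 10.7.3.1, corrected for background and not normalized between arrays. A second deposited table gives log2 values of 699 features, normalized between arrays, and its 104 largest values are identical in all columns. The file headers name the older rn4 build, and no coordinates were taken from them.

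Outlier spots were left out, the processed signals of a probe averaged, and probes added up per miRNA (677 miRNAs, 1644 probes). Sums were divided by the 75th percentile of 109 probes detected on all arrays, raised to a floor at the lowest signal well above background, and taken to log2. limma 3.58.1 (R 4.3.3) fitted 9 groups and 12 contrasts over 144 miRNAs, those with detection on all arrays of some group, with 17 residual degrees of freedom and Benjamini-Hochberg adjustment within a contrast. Calls need an adjusted p under 0.05. The fit was run on simulated data with independent noise. That simulation had no slide effects and no floor, so it says nothing about those limits. The rest was done in Python 3.11.15 (pandas 2.3.3, numpy 2.4.6), with scipy 1.17.1 for rank correlations and figures from matplotlib 3.10.9.

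miR-22 and the miRNA lists were chosen with earlier results of these data known. Named were miR-22, miR-22*, any miRNA sharing its seed, the brightest miRNA, the 2 next above and below miR-22 in normal liver, the 5 highest and 3 lowest Pearson r, and of each list up to 2 called miRNAs per direction with the largest difference. Alternatives covered scaling, background correction, probe choice, detection filter, slide and scan day blocks and leaving out arrays. The number of arrays limits the precision.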

Additional observations from a re-analysis of the deposited data

How the results depend on the processing

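The rank of miR-22 in normal liver was 3 under all 8 other ways of processing and without each normal liver in turn. Scaling and quantile normalization keep the order within an array, and each normal array had rank 3. Those settings and the left out livers thus could not have changed it. The 36 h difference of miR-22 after 2/3PH from normal liver (-0.43) moved to -0.59 without scaling, -0.23 with quantile normalization and -0.61 with normexp background correction, beyond the SD of 0.15 between replicates, and stayed within it under the other 8. Against 1/3PH (-0.49) it moved to -0.23 with quantile normalization and -0.0037 with the 75th percentile over all probes. The 1/3PH difference from normal liver (0.06) moved to -0.52 with that percentile. Among the 36 h differences, slide as a fixed block could be fitted for 2/3PH minus normal only. It gave -0.54 ± 0.21 (SE), which rested on 1 slide with 2 arrays of 2/3PH and 1 normal liver. Without single arrays the 3 differences ranged from -0.03 to 0.15 for 1/3PH, from -0.52 to -0.39 for 2/3PH and from -0.58 to -0.40 between operations. The cause of each shift was not tested. No paired analysis was possible because every array came from a different rat. Alternatives for miR-22* were not run, since it was not tested.

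For 2/3PH minus normal liver, the 11 lower and 16 higher calls among all miRNAs became 0 and 1 without scaling, 0 and 0 with the 75th percentile over all probes and 1 and 2 with normexp, and the higher calls became 5 in the deposited table. For 2/3PH minus 1/3PH, the 7 lower calls became 0 in those same 3 processings, 4 with quantile normalization, 3 with the software's gene signals, 3 in the deposited table, 2 with slide as a random block, 3 over miRNAs detected on at least 1 array and 4 with a trended prior. The 15 higher calls became 0 without scaling, 5 with the percentile over all probes, 1 with normexp, 7 in the deposited table and 7 with slide as a random block. Without single arrays these counts were 2 to 7 lower and 5 to 15 higher. The lowest, 2 lower calls, came without replicate 2 of 1/3PH at 36 h and without replicate 1 or 2 of 2/3PH at 36 h, and 5 higher calls came without replicate 3 of 1/3PH or replicate 1 of 2/3PH at 36 h. For 1/3PH minus normal liver every count was 0 throughout.

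Among the 20 brightest, the 2 lower and 2 higher calls of 2/3PH against normal liver became 0 and 0 without scaling and with the percentile over all probes, 1 and 1 with normexp, and the higher 1 in the deposited table. Without single arrays they were 1 to 3 in both directions. Against 1/3PH the 2 lower calls became 0 in the first 3 of these, and 1 in the deposited table, with slide as a random block and over miRNAs detected on at least 1 array. The 2 higher calls became 0 without scaling and 1 with the percentile over all probes, normexp, the slide block and the wider filter. Without single arrays both were 1 to 2. Of the growth-restraining miRNAs, the 2 lower and 1 higher calls against normal liver became 0 and 0 without scaling and with the percentile over all probes, the lower 1 with normexp and the higher 2 with quantile normalization, with 1 to 3 lower without single arrays. Against 1/3PH the 2 lower became 0 without scaling, with that percentile and with normexp, and 1 in the deposited table, with the slide block and with the wider filter, and 1 to 2 without single arrays. The 1 higher call became 0 without scaling and with normexp, and 2 with quantile normalization. Of the growth-promoting miRNAs, the 6 higher against normal liver became 1 without scaling, 0 with the percentile over all probes, 0 with normexp and 1 in the deposited table. The 6 against 1/3PH became 0 without scaling, 2 with that percentile, 0 with normexp, 3 in the deposited table, 2 with the slide block and 3 over miRNAs detected on every array, and 1 to 7 without single arrays.

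Without scaling, the brightness of an array enters both sides of a correlation. The correlations with miR-22 given above were then all positive: 0.89 for miR-151, 0.79 for miR-378, 0.92 for miR-195, 0.88 for miR-10a-5p, 0.89 for miR-28, 0.38 for miR-34a, 0.67 for miR-25 and 0.42 for miR-15b. The part of the dim array in this was not tested. With quantile normalization and in the deposited table that of miR-195 (0.51) was 0.33 and 0.21 and that of miR-10a-5p (0.47) was 0.25 and 0.16, and no sign turned.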
